A study of Mus musculus with 34 samples.

Results

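The genes described here are 4 ligands and 3 receptors of the EGF family in cumulus cells (CCs), the granulosa-derived cells that surround the oocyte. They were taken by symbol from the table of read counts: Areg (amphiregulin), Ereg (epiregulin), Hbegf (heparin-binding EGF-like growth factor) and Btc (betacellulin), and the receptors Egfr, Erbb2 and Erbb3. All 7 symbols were found, each in 1 of the 25965 entries of the table. In the preovulatory follicle, luteinizing hormone (LH) acts on mural granulosa cells and raises cAMP, and these cells then make Areg, Ereg and Btc. The ligands are cut from the cell surface by ADAM proteases and activate EGFR, which signals through RAS and the MAP kinases ERK1 and ERK2. In CCs this signal turns on genes of expansion, such as Has2, Ptgs2 and Tnfaip6, and allows the oocyte to resume meiosis. ERBB2 binds no known ligand and signals as the partner of another ErbB receptor, whereas ERBB3 binds neuregulins and has little kinase activity of its own.

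The 34 libraries came from superovulated C57BL/6J females that entered the protocols at 8 weeks of age. The pharmacological hyperleptinemic model comprised mice given saline for 16 days (16 C, n = 3) or 100 µg of leptin per day for 16 days (16 L, n = 5). In the diet-induced obesity protocol, mice received chow diet (CD, 11% of energy from fat by the labels) or high-fat diet (HFD, 58%) for 4 weeks (4-week CD, n = 5; 4-week HFD, n = 5) or 16 weeks (16-week CD, n = 6; 16-week HFD, n = 7). The low weight gainers (n = 3) were labelled as such among mice on 16 weeks of HFD. Each library was made from about 50 CCs, which the labels assign to 1 cumulus-oocyte complex and the paper to 1 animal, and the time between the hormones and the collection of the CCs is not given in the sources used here. The hormones were common to all groups, so no library shows the ligands before the ovulatory stimulus. In such bulk samples, fewer cells of a type and less RNA per cell cannot be told apart.

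Total counts ranged from 1104611 to 13207018 per library. Levels are CPM (counts scaled to a common library size) with TMM factors, which rescale each library so that most genes keep the same level. The TMM factor was 0.64 to 0.741 in 16 C and 0.907 to 1.33 in 16 L, and the 50 most abundant genes held 30.7% to 34.6% of the counts in 16 C against 13.4% to 19.8% in 16 L. The 11 cumulus and granulosa markers, of which 10 or 11 were detected per group, summed to 15300 to 40800 CPM in 16 C and to 3450 to 10800 CPM in 16 L, without overlap. They summed to 4040 to 7530 CPM in 4-week CD and 7970 to 9040 CPM in 4-week HFD, again without overlap, to 5990 to 24100 CPM in 16-week CD, to 7930 to 16800 CPM in 16-week HFD and to 14300 to 17900 CPM in the low weight gainers. In the hyperleptinemic model Gja1 had the highest mean of these markers, 21500 CPM in 16 C and 3190 CPM in 16 L. By group mean Foxl2, Fshr, Amh, Nr5a1 and Cyp19a1 were higher in 16 L, and the other markers were lower. Star, which carries cholesterol into mitochondria, fell in 16 L by 1.58 as a log2 value (edgeR adjusted p = 0.0394). Fshr, the FSH receptor, rose by 1.87 in 4-week HFD (adjusted p = 0.0281). In the low weight gainers against 16-week HFD, edgeR called 1 of the 10 markers tested higher and 1 lower, where 20.7% of all genes were called. The part of cell content in the results of these groups was not tested. Several libraries stood apart. In 16 L replicate 18, the 8 genes of the oviduct epithelium list summed to 34780 CPM, the 7 of theca and stroma to 1667 CPM and the 3 red blood cell genes found in the table to 10810 CPM. Replicate 21 of 16 L had 42.2 CPM of the theca and stroma list and 1917 CPM of the red blood cell genes. The oviduct list was also above the 16 C range of 202 to 227 CPM in 16 L replicates 20, 21 and 23 (1424, 1828 and 664.8 CPM), but not in replicate 19 (132.4 CPM). By group mean Ovgp1 led this list in 16 L (7060 CPM, 55.4 CPM in 16 C), with 32300 CPM in replicate 18. Krt8 and Krt18 were already at 83.6 and 73.3 CPM in 16 C, and Muc16 had reads in replicate 18 only. The sums thus do not show that each gene of the list was raised. In 16-week CD, replicates 1 and 2 had TMM factors of 1.367 and 1.315. In 4-week HFD, 1 library held 344 CPM of the 10 oocyte genes. In CPM, a gene with 0 counts in a library could still lie at up to 0.22 to 2.73 CPM, depending on the depth (3 counts, counting error only).

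Per kilobase of exon and pooled over the 34 libraries, Btc was the most abundant member (mean 6.96 ± 3.71 CPM per kb, SD), followed by Egfr (2.64 ± 1.07), Erbb2 (2.31 ± 1.80) and Erbb3 (1.29 ± 0.661). Ereg (0.855 ± 1.35), Areg (0.751 ± 1.19) and Hbegf (0.299 ± 0.733) were the lowest, with standard deviations larger than their means. The order of group means was not the same everywhere. In 16 L it was Erbb2 (4.18 CPM per kb), Btc (2.56) and Egfr (1.99), and in 4-week CD Erbb2 (3.63) was also above Egfr (3.26). Btc and the 3 receptors had reads in all 34 libraries. Areg, Ereg and Hbegf were each missed in several, with 131, 597 and 265 reads in the whole series. Of the rest of the family, Nrg4 (2.66 ± 2.73 CPM per kb) and Tgfa (2.32 ± 1.57) were at the level of Egfr. Epgn (108 reads), Egf (43 reads), Nrg1 (22 reads) and Erbb4 (76 reads) were close to the limit of detection.

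**Figure D1:**
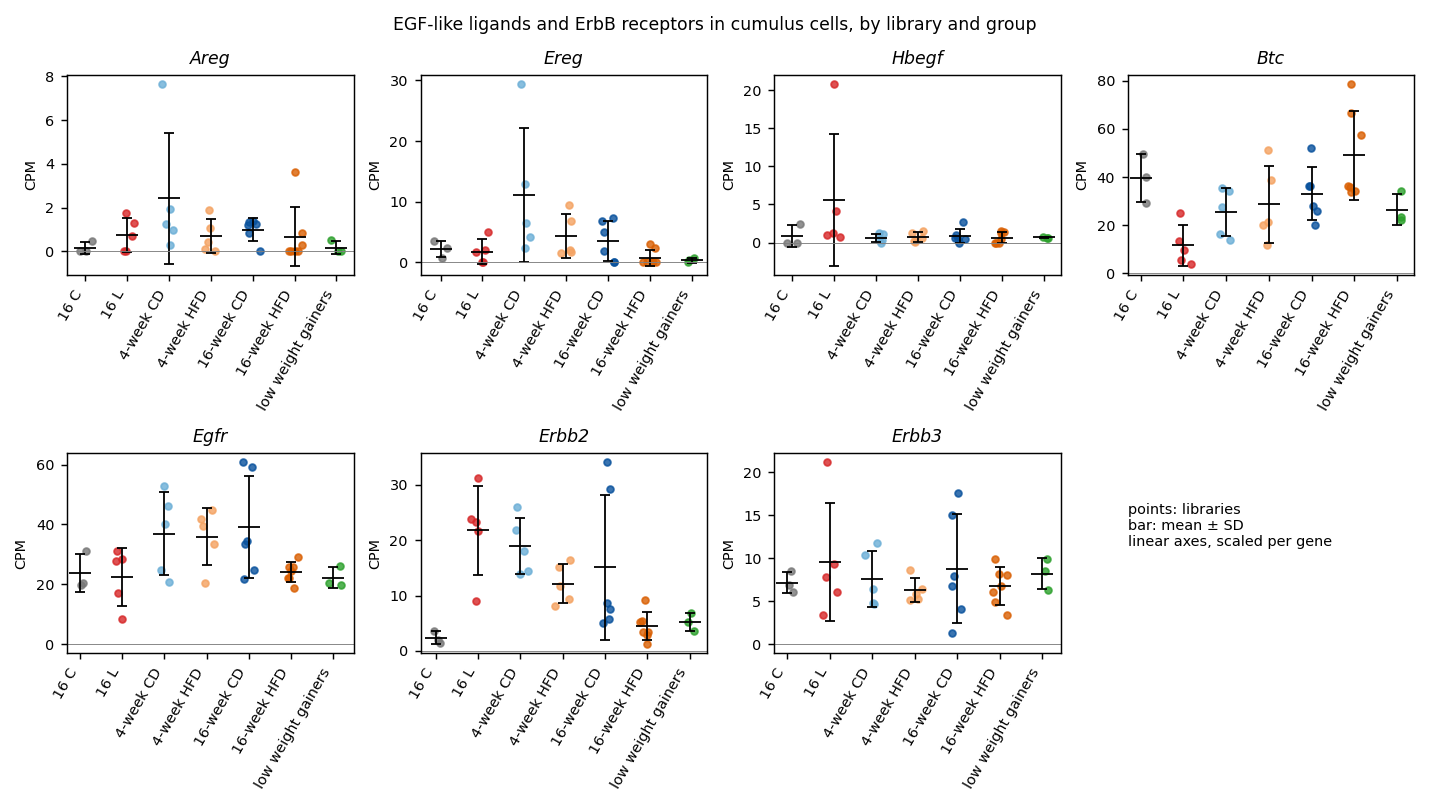
CPM of the 7 members in each of the 34 libraries (points), with the mean ± SD of each of the 7 groups, on linear axes scaled for each gene. By group mean, Erbb2 is lowest in 16 C (2.37 CPM) and highest in 16 L (21.8 CPM), Btc shows the opposite order in this model, and the high points of Hbegf and Erbb3 are the same 16 L library.

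Areg and Ereg, the principal ligands of the ovulatory signal, lie next to each other on chromosome 5. In GRCm38 coordinates of the table, Ereg spans chr5:91074617-91093649 and Areg chr5:91139615-91148432, both on the plus strand and 46.0 kb apart. Btc follows 208.8 kb further at chr5:91357261-91402994 on the minus strand, and Epgn, a further EGF-like ligand, lies before Ereg at chr5:91027464-91035215. Among the genes within 500 kb of Areg or Ereg by their starts are the chemokine genes Cxcl5, Ppbp, Pf4, Cxcl3, Cxcl15, Cxcl1 and Cxcl2. Neighbours in position differed in mean level over the 34 libraries, with 49.7 CPM per kb for Parm1 and 6.96 for Btc against 0.751 for Areg and 0.368 for Epgn. Epgn had 0 reads in the 5 libraries of 16 L, 1 read in 1 of the 3 libraries of 16 C, and reads in every library of 4-week CD and 4-week HFD.

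The 250 bases before the transcription start of 3 members are shown because Areg is the ovulatory ligand induced through cAMP, and Btc and Erbb2 are the members whose levels passed the test in a comparison. Sequences are from RefSeq (GRCm38.p6), whose promoter table matched 4 of the 7 members, and run 5′ to 3′ on the strand of the gene. Capitals mark the core of the cAMP response element (CRE), TGACG, or its reverse complement CGTCA, searched on both strands. The windows are chr5:91139349-91139598 (plus strand) for Areg, chr5:91402995-91403244 (minus strand) for Btc and chr11:98412234-98412483 (plus strand) for Erbb2.
Areg: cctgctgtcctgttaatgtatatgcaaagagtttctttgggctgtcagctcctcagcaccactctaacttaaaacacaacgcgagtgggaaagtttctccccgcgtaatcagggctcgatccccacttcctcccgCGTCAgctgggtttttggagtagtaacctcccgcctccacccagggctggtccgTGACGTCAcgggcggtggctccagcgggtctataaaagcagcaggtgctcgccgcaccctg
Btc: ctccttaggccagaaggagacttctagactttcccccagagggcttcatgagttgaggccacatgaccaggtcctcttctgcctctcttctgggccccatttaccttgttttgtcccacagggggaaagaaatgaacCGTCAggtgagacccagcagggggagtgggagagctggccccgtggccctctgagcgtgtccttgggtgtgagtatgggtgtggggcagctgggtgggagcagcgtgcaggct
Erbb2: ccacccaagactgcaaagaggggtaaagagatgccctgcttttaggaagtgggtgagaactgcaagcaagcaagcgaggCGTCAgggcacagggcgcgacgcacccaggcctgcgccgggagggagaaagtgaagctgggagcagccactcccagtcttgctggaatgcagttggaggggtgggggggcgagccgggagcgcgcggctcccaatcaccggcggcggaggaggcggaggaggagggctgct
Areg had 3 matches, which began 115, 61 and 58 bases before the start, and the last 2 overlap in the palindrome TGACGTCA, the full CRE. Btc had 1 match, 113 bases before the start, and Erbb2 had 1, 171 bases before it. The window of Egfr (chr11:16751953-16752202, plus strand), the other matched member, had 0. Among 32851 promoter windows of the same length, 17.8% held the core and 1.5% the full CRE. A match describes the letters only.

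Areg was detected in 22 of the 34 libraries. It had 0, 4 and 0 reads in the 3 libraries of 16 C, and 8, 0, 4, 1 and 0 reads in the 5 of 16 L. In 4-week CD its reads were 2, 13, 5, 5 and 7, and those in 4-week HFD were 0, 2, 5, 1 and 26. All 5 libraries of 4-week CD had reads, and the highest level of the series, 7.67 CPM, was 4-week CD replicate 2. In 16-week CD, Areg ranged from 0 to 1.38 CPM with a median of 1.22 CPM, and 5 of the 6 libraries had reads. In 16-week HFD it was found in 3 of the 7 libraries and ranged from 0 to 3.63 CPM with a median of 0. The low weight gainers had 3, 0 and 0 reads. The groups overlapped, and Areg passed the filter on low counts in none of the comparisons.

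Ereg was detected in 24 libraries, 18 of which also had reads of Areg, and 6 libraries had neither. The highest levels were in 4-week CD with 6.49, 29.5, 4.18, 2.32 and 12.9 CPM (mean 11.1 ± 11.0, SD, n = 5). In 4-week HFD they were 2.13, 1.53, 1.67, 9.55 and 6.81 CPM (4.34 ± 3.65, n = 5). In 4-week HFD 3 of the 5 libraries were below all CD libraries, and the other two were not. The log2 fold change was -1.25 (SE 0.642, 95% interval -2.73 to 0.23, edgeR's quasi-likelihood test, adjusted p = 0.24). At 16 weeks Ereg had a median of 3.48 CPM in CD (0 to 7.41 CPM, 101 reads in all) and a median of 0 in HFD (0 to 2.98 CPM, 18 reads). Reads were found in 4 of 6 CD and 2 of 7 HFD libraries, and the difference of mean log2(CPM + 1) was -1.16 (two-sided exact permutation test, p = 0.115). The low weight gainers had 2, 0 and 3 reads (0.370 ± 0.392 CPM, n = 3), within the range of 16-week CD (log2 fold change -3.17, SE 1.39, edgeR adjusted p = 0.42). Ereg was at 0.754, 2.37 and 3.47 CPM in 16 C and at 0, 0, 1.73, 2.04 and 5.03 CPM in 16 L, with overlapping groups.

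Hbegf (chr18:36504929-36515805, minus strand), whose product binds both EGFR and heparan sulfate, had 127 of its 265 reads in 16 L replicate 18. Its level there was 20.9 CPM, and in the other 4 libraries of 16 L it was 0.7095, 1.30, 4.09 and 1.01 CPM. In 16 C it was 0, 2.48 and 0 CPM. In the other groups the highest library was at 2.75 CPM. The mean of 16 L was 5.59 ± 8.65 CPM (SD, n = 5), and 1.78 ± 1.56 CPM (n = 4) without replicate 18, the library with the largest sums of the oviduct, theca and red blood cell lists. Replicate 21, the next highest for Hbegf in 16 L (4.09 CPM), also had raised theca and red blood cell sums. They were 42.2 and 1917 CPM, against at most 3.78 and 30.2 CPM in 16 C. The part of these cells in the level of Hbegf was not tested. Areg, Ereg and Hbegf failed the filter in 13 of the tests between pairs of groups and were compared there by exact permutation. The lowest p was 0.0714 (Areg, low weight gainers against 16-week CD, where the smallest p possible is 0.0119), and the smallest p after Benjamini-Hochberg adjustment over these 13 was 0.696. At these depths a difference of a few reads was not detectable.

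Btc, a ligand of EGFR and ERBB4, was the best measured ligand with 4910 reads. Its level fell in the low weight gainers relative to 16-week HFD. The low weight gainers were at 23.3, 22.1 and 34.1 CPM (26.5 ± 6.60, SD, n = 3), and 16-week HFD ranged from 33.6 to 78.8 CPM with a median of 36.2 (49.0 ± 18.5, n = 7). In 2 of the 3 low weight gainers the level was below all 7 HFD libraries, and replicate 23 (34.1 CPM) lay just above the lowest of them. This was a log2 fold change of -0.92 (SE 0.308, 95% interval -1.63 to -0.21, edgeR adjusted p = 0.0427). Btc was 1 of 4 members tested, and 20.7% of all genes tested were called in this comparison. The call was lost in 6 of the 10 fits that left out 1 library, namely 16-week HFD replicates 12, 14 and 16 and low weight gainers replicates 21, 22 and 23 (adjusted p over the 10 fits 0.026 to 0.15). With offsets for GC content and transcript length the log2 fold change was -0.53 (adjusted p = 0.255). Of the macrophage and neutrophil markers S100a8 rose in the same comparison (by 4.72, adjusted p = 0.0185), while the list summed to 259 to 342 CPM in the low weight gainers and 114 to 615 CPM in 16-week HFD. S100a9, which failed the filter there, was at 11.6 ± 10.5 CPM (SD, n = 3) in the low weight gainers, with the highest level of the series, 20.5 CPM, in replicate 23. The part of these cells in the level of Btc was not tested.

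In the hyperleptinemic model Btc missed the threshold in edgeR. It was at 29.4, 49.5 and 40.1 CPM in 16 C (39.7 ± 10.1, n = 3) and at 5.42, 9.83, 13.4, 4.09 and 25.2 CPM in 16 L (11.6 ± 8.44, n = 5). All 5 libraries of 16 L were below all 3 of 16 C, as was the case in one direction or the other for 23.2% of the genes tested. Its log2 fold change was -1.78 (SE 0.545, 95% interval -3.12 to -0.45), with an edgeR adjusted p of 0.0663. It passed with DESeq2 (-1.80, adjusted p = 0.0188), with limma-voom (-1.39, adjusted p = 0.00438) and with all 34 libraries in one edgeR fit (-1.77, adjusted p = 0.00377). Over all genes these fits called 2629, 7552 and 4384, against 1004 in the edgeR fit of this model alone. Without 16 L replicate 18 the log2 fold change of Btc was -1.69 (edgeR adjusted p = 0.0207), in a fit that called 4635 genes. With any other library left out the threshold was missed.

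In the diet groups Btc was at 27.6, 16.5, 35.6, 13.9 and 34.2 CPM in 4-week CD and at 19.9, 11.8, 21.3, 39.0 and 51.3 CPM in 4-week HFD. These overlapped throughout, and the log2 fold change was 0.15 (SE 0.367, edgeR adjusted p = 0.832). In 16-week CD it ranged from 20.2 to 52.0 CPM with a median of 32.1 (33.1 ± 11.2, n = 6). In 16-week HFD 3 of the 7 libraries were above all of these, and the log2 fold change was 0.57 (SE 0.273, 95% interval -0.03 to 1.17, edgeR adjusted p = 0.2). Between the low weight gainers and 16-week CD it was -0.33 (SE 0.331, edgeR adjusted p = 0.74). The 3 comparisons at 16 weeks share their libraries, so they are not separate observations.

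Egfr (chr11:16752203-16918158, plus strand), the receptor of Areg, Ereg, Hbegf and Btc, had 5200 reads and no call in any comparison by edgeR with TMM. It was at 19.6, 31.2 and 20.4 CPM in 16 C and at 8.22, 27.9, 28.5, 17.02 and 31.2 CPM in 16 L, where replicate 18 was the lowest (log2 fold change -0.09, SE 0.455, 95% interval -1.21 to 1.02, edgeR adjusted p = 0.907). In 4-week CD it was at 52.8, 20.6, 24.9, 46.1 and 40.2 CPM and in 4-week HFD at 41.6, 33.5, 20.5, 39.4 and 44.7 CPM, with a log2 fold change of -0.07 (SE 0.287, edgeR adjusted p = 0.901). The 2 highest levels of the series, 60.9 and 59.1 CPM, were 16-week CD replicates 1 and 2, and the other 4 libraries of that group were at 21.8 to 34.3 CPM. In 16-week HFD the range was 18.9 to 29.1 CPM with a median of 24.6. Between 16-week HFD and CD the log2 fold change was -0.71 (SE 0.263, edgeR adjusted p = 0.116), and -0.19 (adjusted p = 0.774) without those 2 libraries. Scaled by total counts, it was -1.15 and passed the threshold (edgeR adjusted p = 0.036), in a fit that called 1622 genes. The low weight gainers were at 26.1, 20.6 and 19.8 CPM, within the range of 16-week HFD. Egfr overlaps E230015J15Rik on the minus strand, which had 111 reads in the whole series.

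Erbb3 (chr10:128567523-128589652, minus strand) was the lowest of the receptors with 1288 reads, and its groups overlapped in every comparison. It was at 6.03, 8.51 and 6.93 CPM in 16 C and at 21.2, 9.32, 7.79, 3.40 and 6.04 CPM in 16 L, where the highest library was again replicate 18. Its log2 fold change was 0.45 (95% interval -1.08 to 1.98, edgeR adjusted p = 0.64) with this library and -0.20 (adjusted p = 0.745) without it. In 16-week CD the levels spread from 1.24 to 17.6 CPM with a median of 7.39, and replicates 1 and 2 were again the highest. The range was 4.65 to 11.8 CPM in 4-week CD, 5.14 to 8.61 in 4-week HFD, 3.37 to 9.92 in 16-week HFD and 6.24 to 9.92 in the low weight gainers. Over all comparisons the edgeR adjusted p of Erbb3 was between 0.583 and 0.994.

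Erbb2 (chr11:98412470-98437716, plus strand) rose in 16 L. It was at 1.51, 3.67 and 1.93 CPM in 16 C (2.37 ± 1.14, SD, n = 3), from 2, 31 and 5 reads, and at 9.04, 23.2, 21.6, 23.8 and 31.2 CPM in 16 L (21.8 ± 8.02, n = 5), from 55, 229, 50, 35 and 93 reads. All 5 libraries of 16 L were above all 3 of 16 C, and 23.2% of the genes tested did not overlap between these groups in one direction or the other. In these libraries (replicates 18, 19, 20, 21 and 23 of 16 L) the oviduct list summed to 34780, 132.4, 1424, 1828 and 664.8 CPM, against 202 to 227 CPM in 16 C. By group mean Ovgp1 led the list in 16 L. The oocyte list summed to 12.1 to 50 CPM in 16 L against 1.51 to 1.93 CPM in 16 C, with Zp1 and Oosp1 at 0 in both. Of its genes Kit, a receptor tyrosine kinase, rose by 5.56 (edgeR adjusted p = 0.0263), and Dppa3 had a log2 fold change of 2.80 (adjusted p = 0.12). Gdf9 had a mean of 1.02 CPM in 16 C and 0.979 CPM in 16 L. The means of Zp2, Zp3, Bmp15, Ooep and Nlrp5 were 0 to 0.118 CPM in 16 C and 0.197 to 0.92 CPM in 16 L. The part of oviduct and oocyte RNA in the level of Erbb2 was not tested. The log2 fold change was 3.08 (SE 0.56, 95% interval 1.71 to 4.45, edgeR adjusted p = 0.0188), an 8.43-fold higher level, against a median over all genes of 0.27. Erbb2 was the 1 call among the 4 members tested, in a comparison in which 8.56% of genes were called. Without replicate 18 the log2 fold change was 3.12 (edgeR adjusted p = 0.000497), in a fit that called 4635 genes. The call was kept without replicate 19 but lost when any other library of 16 L or any of the 3 of 16 C was left out (adjusted p up to 0.115, log2 fold change 2.89 to 3.63).

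In the diet groups Erbb2 was at 14.5, 25.9, 18.1, 13.9 and 21.9 CPM in 4-week CD and at 9.41, 8.09, 11.7, 16.5 and 15.1 CPM in 4-week HFD. Of the HFD libraries 3 of 5 were below all CD libraries, and the log2 fold change was -0.64 (SE 0.28, 95% interval -1.29 to 0.0045, edgeR adjusted p = 0.173). At 16 weeks CD ranged from 4.95 to 34.2 CPM with a median of 8.09, and HFD from 1.32 to 9.26 CPM with a median of 3.49. The 2 highest CD libraries were replicates 1 and 2 (29.4 and 34.2 CPM), and the other 4 were at 4.95 to 8.58 CPM. The log2 fold change was -1.83 (SE 0.527, edgeR adjusted p = 0.0664), and -0.59 (adjusted p = 0.664) without these 2 libraries. It passed the threshold without 16-week CD replicate 9 (edgeR adjusted p = 0.0167) or replicate 13 (edgeR adjusted p = 0.0471). These fits called 2222 and 473 genes, against 3 with all libraries of the comparison. The low weight gainers were at 5.29, 3.63 and 6.76 CPM, inside the range of 16-week HFD (log2 fold change 0.25, SE 0.47, 95% interval -0.83 to 1.34, edgeR adjusted p = 0.733).

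In order of its mean, Erbb2 was highest in 16 L, then in 4-week CD, 16-week CD and 4-week HFD, and lower in the low weight gainers, 16-week HFD and 16 C. The only neighbouring groups of this order whose libraries did not overlap were 4-week HFD and the low weight gainers. The means of Btc ran from 16-week HFD, 16 C and 16-week CD down to 4-week HFD, the low weight gainers, 4-week CD and 16 L, and all neighbours overlapped. Over the 34 libraries the Spearman correlation of Btc and Erbb2 was -0.499 and that of Egfr and Erbb2 0.418, both given as descriptions across libraries that share group and composition.

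Across the comparisons, 0 of 5 members tested were called in 4-week HFD against 4-week CD (4.26% of all genes called), 0 of 4 in 16-week HFD against 16-week CD (0.0276%) and 0 of 5 in the low weight gainers against 16-week CD (0.00861%). At an unadjusted p under 0.05 these counts in edgeR were 1, 2 and 3, against 2845 of 11727, 2748 of 10861 and 1299 of 11620 genes. In the interaction of diet and time, which compares the HFD effect at 16 weeks with that at 4 weeks, 0 of 5 members were called (3.66% of all genes). Of these members 0 had an unadjusted p under 0.05, against 2863 of 12235 genes. DESeq2 called 0, 1 and 0 members in the 3 pairwise comparisons and 0 in the interaction, whereas limma-voom called 2, 0 and 0, and 0. Over all genes, in the same order, DESeq2 called 1286, 1056, 245 and 1165, and limma-voom 4048, 5, 196 and 2355. The interaction of Erbb2 was -1.05 on the log2 scale (SE 0.601, 95% interval -2.31 to 0.21, edgeR adjusted p = 0.288).

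**Figure D2:**
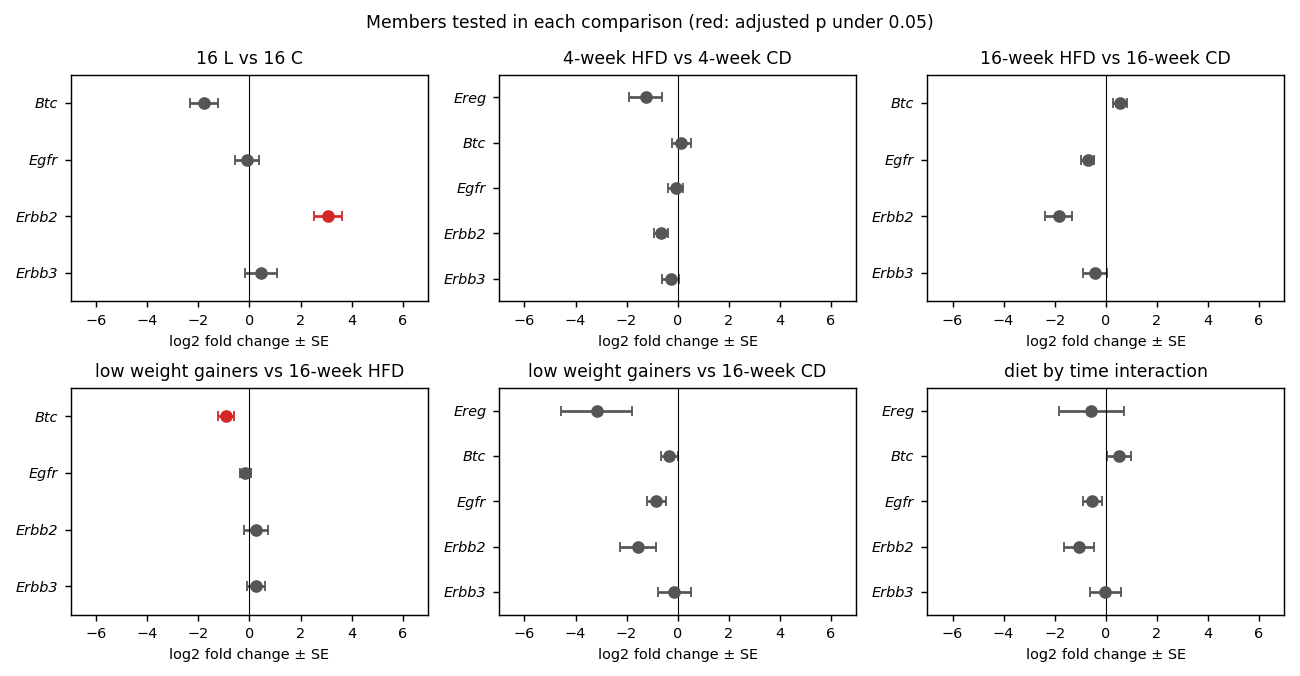
Log2 fold change ± SE of each member that passed the filter, by comparison, with calls at an adjusted p under 0.05 in red. The calls are Erbb2 in 16 L (3.08) and Btc in the low weight gainers against 16-week HFD (-0.92), and Btc in 16 L lies at -1.78 without passing.

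A ratio of reads per kb of 2 members within a library needs no scaling between libraries. A trend with GC content can remain in it, since Egfr has 44.4% GC, Erbb2 57.3% and Btc 40.6%. Erbb2 and Btc alone also did not overlap between 16 C and 16 L, as for 23.2% of the genes tested. The share of all such ratios without overlap was not counted. Erbb2 over Egfr was 0.167 to 0.255 in 16 C and 1.65 to 3.04 in 16 L, with no overlap. It was 0.598 to 2.73 in 4-week CD, 0.491 to 1.24 in 4-week HFD, 0.321 to 1.26 in 16-week CD, 0.0988 to 0.779 in 16-week HFD and 0.384 to 0.744 in the low weight gainers. The 3 libraries of 16 C thus lay below those of 4-week CD, 4-week HFD and 16-week CD. Btc over Egfr was 3.76 to 4.92 in 16 C and 0.601 to 2.02 in 16 L, again without overlap, and 3.08 to 10.5 in 16-week HFD against 2.24 to 4.32 in the low weight gainers, which overlapped.

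**Figure D3:**
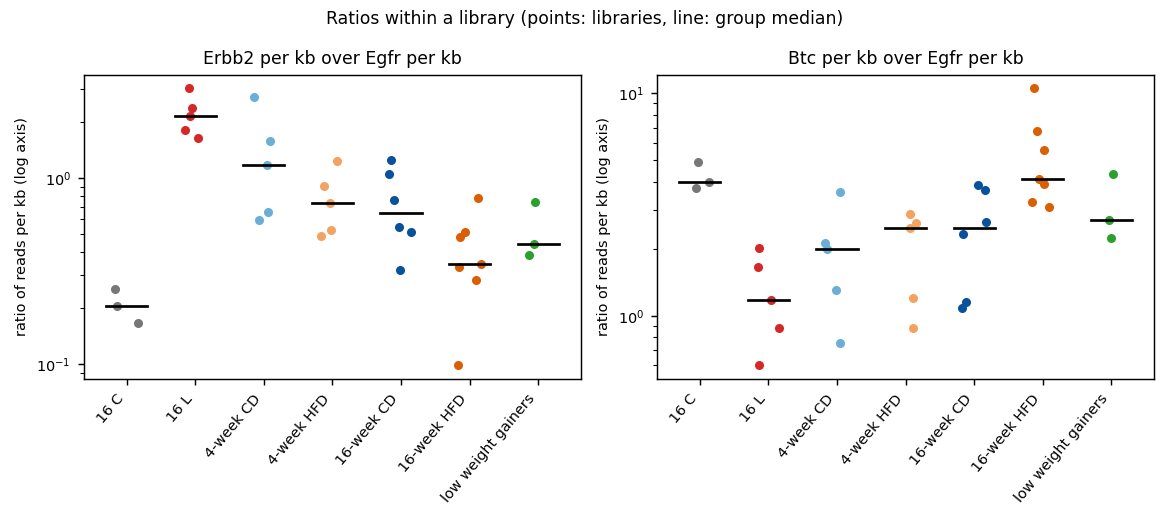
Ratio of reads per kb of Erbb2 to Egfr (left) and of Btc to Egfr (right) in each library, on log axes, with the group median as a line. The Erbb2 ratio of 16 C (median 0.205) and 16 L (median 2.17) are at opposite ends of the series, and for Btc 16 L is lowest (median 1.18).

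Erbb2 and Btc also moved with properties of the libraries. Over the 34 libraries, the Spearman correlation of Erbb2 with the TMM factor was 0.914 and with the GC content of the counted reads 0.668, and for Btc the values were -0.605 and -0.73. Erbb2 is GC-rich (57.3% of exon bases, above 88.6% of genes) and Btc GC-poor (40.6%, above 11.5%). Across all genes, the log2 fold change of 16 L had a Spearman correlation of 0.366 with GC content, and that of the low weight gainers against 16-week HFD 0.519. With offsets for GC content and length, Erbb2 in 16 L kept its call with a log2 fold change of 2.09 (edgeR adjusted p = 0.0252), and Btc in 16 L was at -1.38 (edgeR adjusted p = 0.145). The part of library composition in these differences was not tested further. TMM in place of total-count scaling moved the log2 fold changes of 16 L by -0.813 in the median of all genes. This shift was 0.116 for 4-week HFD and 0.355 for 16-week HFD. For the low weight gainers it was -0.171 against 16-week HFD and 0.213 against 16-week CD, and for the interaction 0.317. With total-count scaling Erbb2 in 16 L stayed past the threshold, and Btc in the low weight gainers against 16-week HFD did not (log2 fold change -0.71). The end of Erbb2 shares 9 bases with 1810046J19Rik on the minus strand, and reads there cannot be told apart without strand.

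**Figure D4:**
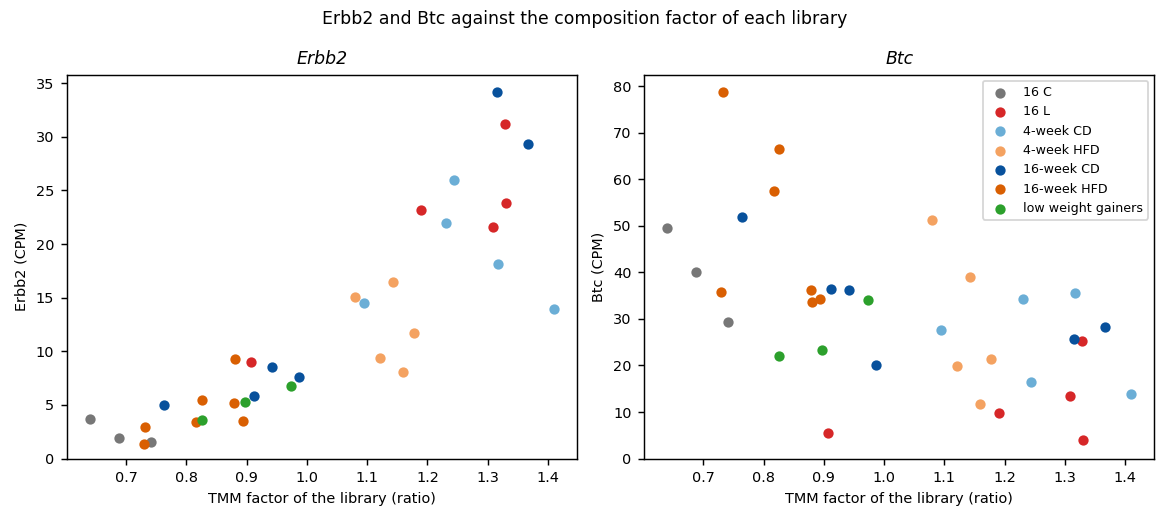
CPM of Erbb2 (left) and Btc (right) against the TMM factor of each of the 34 libraries, coloured by group. Erbb2 is higher in libraries with a higher factor (Spearman 0.914) and Btc lower (Spearman -0.605), and the 16 C libraries lie at the low end of the factors (0.64 to 0.741).

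The other steps of the pathway were followed with 68 further genes. In 16 L, 4 of the 55 tested rose and 5 fell (16.4% called, against 8.56% of all genes), or 16 and 4 when scaled by total counts. Over all genes, scaling by total counts called 3966, against 1004 with TMM. Among the 7 shedding genes tested, Adam10, a protease that cuts Btc, fell by 2.85 on the log2 scale (SE 0.445, edgeR adjusted p = 0.0131), and Adam15 rose by 2.67 (adjusted p = 0.0395). Of the 9 adaptors and RAS activators, Nras fell by 2.77 (adjusted p = 0.0284). Of the 10 genes of the MAP kinase cascade, Braf fell by 3.20 (adjusted p = 0.0114), whereas Map2k2 (MEK2) rose by 1.41 (adjusted p = 0.0413) and Mapk3 (ERK1) by 1.81 (adjusted p = 0.0263). Of the 13 negative regulators, Dusp6, an ERK phosphatase, fell by 2.00 (adjusted p = 0.0429) and Lrig2 by 1.81 (adjusted p = 0.03). Of the 2 other ligands tested, Nrg4, which binds ERBB4, rose by 2.04 from 9.17 ± 2.34 CPM (SD, n = 3) to 38.6 ± 21.9 CPM (n = 5), with an adjusted p that rounds to 0.05 from below. None of the 6 expansion genes and none of the 8 LH receptor and cAMP genes tested was called by edgeR. In each list 1 was at an unadjusted p under 0.05, as were 3798 of 11723 genes. The log2 fold changes of all 6 expansion genes were below the median of all genes. Tnfaip6 was at 1677 ± 520 CPM (SD, n = 3) in 16 C and 224.4 ± 148.7 CPM (n = 5) in 16 L, without overlap, and the other expansion genes overlapped. Lhcgr was at 12.2 ± 0.736 and 5.05 ± 2.70 CPM, also without overlap, as for 23.2% of genes tested. With GC and length offsets 7 pathway genes were called, of which 5 (Adam10, Braf, Lrig2, Mapk3 and Nras) were among the 9 calls, so Adam15, Map2k2, Dusp6 and Nrg4 lost the call. DESeq2 called 16 and limma-voom 32 pathway genes, and over all genes they called 2629 and 7552. The 9 calls were all among the 23 made without replicate 18, where 4635 of all genes were called. Between 0 and 12 were made in each fit without one other library, and over all genes 30 to 1603.

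In the low weight gainers against 16-week HFD, 5 of 53 pathway genes rose and 6 fell (20.8% called, against 20.7% of all genes), or 9 and 4 when scaled by total counts. Of the expansion genes, Vcan, the matrix proteoglycan versican, fell from 734.8 ± 92.4 CPM (SD, n = 7) to 369.7 ± 45.04 CPM (n = 3), by 1.04 on the log2 scale (SE 0.222, edgeR adjusted p = 0.00491), and Ptgs2, the prostaglandin synthase of ovulation, fell by 0.89 (adjusted p = 0.0388). Creb1, the factor that binds CREs, fell by 1.16 (adjusted p = 0.0133). Errfi1, an inhibitor of EGFR, rose by 1.37 (adjusted p = 0.00584), whereas the negative regulators Spred1 and Cbl fell by 1.69 and 1.08 (adjusted p = 0.00142 and 0.036). Mapk3, Rps6ka1, Grb2 and Rhbdf1 rose by 1.26, 1.29, 0.75 and 2.00, and Rps6ka3 fell by 1.49 (adjusted p = 0.00599, 0.00838, 0.0208, 0.00867 and 0.000916). With GC and length offsets 4 pathway genes were called, of which 3 (Errfi1, Rps6ka3 and Spred1) were among these 11. The others of the 11, with Vcan, Ptgs2 and Creb1 among them, lost the call. With all 34 libraries in one fit 5 pathway genes were called, and with a library left out 5 to 14. Over all genes these fits called 487, and 596 to 2732. In 4-week HFD against CD, 1 of 54 pathway genes was called, as Socs5, a negative regulator of EGFR, fell by 1.35 (edgeR adjusted p = 0.0212). This call was lost without 4-week CD replicate 2 or 8 or 4-week HFD replicate 3, 4 or 5, which is 5 of the 10 fits that left out 1 library. DESeq2 called 6 and limma-voom 19 of the 54. Over all genes DESeq2 called 1286 and limma-voom 4048, against 499 by edgeR. In 16-week HFD against CD, edgeR called 0 of 54, in the low weight gainers against 16-week CD 0 of 55 and in the interaction 0 of 55. At an unadjusted p under 0.05 were 15, 14 and 16, against 2748 of 10861, 1299 of 11620 and 2863 of 12235 genes. DESeq2 called 9, 5 and 4 pathway genes in these comparisons, and limma-voom 0, 6 and 11. Over all genes DESeq2 called 1056, 245 and 1165, and limma-voom 5, 196 and 2355.

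The genes whose levels were most like those of a member over the 34 libraries were found for the 3 members with a mean of at least 10 CPM, among 11224 genes. For Erbb2 they were Dusp5, Plekhg3 and Dgkd (Spearman 0.921, 0.921 and 0.92), and with group means removed 0.775, 0.757 and 0.805. For Egfr they were Arhgap31, Setdb1 and Socs4 (0.777, 0.772 and 0.736). For Btc they were Larp4, Fst and Skil (0.788, 0.779 and 0.778), of which Fst encodes follistatin, a secreted inhibitor of activin. These coefficients describe the libraries, which share depth and composition.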

How the data were processed

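Smart-seq2 libraries were made by the authors with an oligo-dT primer and Nextera XT from about 50 CCs each, and RNA-seq was analysed in 34 libraries. The authors deposited the read counts of all libraries in 1 table, with a row for each gene, as whole numbers without normalization. The submitters' processing notes name Trim Galore 0.4.2, HISAT2 2.0.5 and GRCm38, and the counting program and annotation are not given in the sources used here. Smart-seq2 has no molecular identifiers and keeps no strand, so limits from counts cover counting error only. Of 72 pairs of replicate columns, 0 held the same values.

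Groups and replicate numbers come from the sample labels. Where the labels do not say that replicates came from separate animals, p-values measure the spread between these samples only. Each comparison was fitted with edgeR 4.0.16 in R 4.3.3 (TMM, filterByExpr, robust quasi-likelihood F-test, two-sided) on its own libraries, with Benjamini-Hochberg adjustment over all genes tested and a threshold of 0.05. Intervals of log2 fold changes are 95% intervals from the SE and the residual degrees of freedom. Members that failed the filter were compared by exact permutation of the mean log2(CPM + 1). Levels are CPM with TMM factors over all 34 libraries, and per kb values use exon lengths and GC contents of GENCODE M21 (22686 symbols matched directly and 1917 through an older symbol). DESeq2 1.42.0 and limma-voom with sample quality weights (limma 3.58.1, named limma-voom throughout) were tried as alternatives. So were RLE and total-count scaling, other filters, a pseudocount of 0.1, all 34 libraries in one fit, and leaving out each library. Offsets for GC content and length, the fit without 16-week CD replicates 1 and 2, and the pathway counts under these settings were added after seeing the data. The fits were tested on simulated data.

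The members and the lists of pathway and marker genes were chosen with earlier results of these data known. Named besides the members were pathway genes past the threshold (at most the 4 largest changes per list and comparison), the rest of the EGF family, the 3 genes most correlated with each member (genes with at least 10 counts in at least 17 libraries), and genes within 500 kb of Areg and Ereg. The genes overlapping Egfr and Erbb2 were named after their values were seen.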

Additional observations from a re-analysis of the deposited data

Results flagged for a closer look

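Of the 35 member and group pairs with 4 to 10 libraries, 2 had a library far from the others by Dixon's gap test, and chance gives about 1 in 20. The gap and range were taken on log2(CPM + 1), not on CPM. Areg in 16-week CD replicate 13 was at 0 CPM, and the next library of the group was at 0.823 CPM (gap over range 0.694). Areg in 16-week HFD replicate 16 was at 3.625 CPM from 14 reads, and the next library was at 0.833 CPM (gap over range 0.604). Both rest on few reads.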

How the results depend on the processing

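The number of members called was 1 in 16 L. It was 2 (Btc and Erbb2) with DESeq2, limma-voom and all 34 libraries in one fit, and 0 with at least 10 counts in every library, a filter that Erbb2 failed by its 2 and 5 reads in 16 C replicates 1 and 3. With a library left out it was 0 to 2. In 4-week HFD it was 0, and 2 with limma-voom. In 16-week HFD it was 0, but 1 with DESeq2 and with all 34 libraries, 2 with total counts only (Egfr and Erbb2), and 0 to 1 with a library left out. In the low weight gainers against 16-week HFD it was 1, but 0 with total counts only, at least 10 counts, all 34 libraries or GC and length offsets, and 0 to 1 with a library left out. The causes of these moves were not tested, apart from the filter. Erbb2 in 16 L was past the threshold in all 7 other settings that tested it (log2 fold change 2.09 to 3.98).

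Log2 fold changes that changed sign were all short of the threshold. In 16 L, Egfr was 0.32 with limma-voom, 0.80 with total counts, 0.064 with at least 10 counts and -0.22 to 0.18 with a library left out, and Erbb3 was -0.12 with limma-voom and -0.20 to 0.65 with a library left out. In 4-week HFD, Btc was -0.67 with limma-voom, -0.22 with GC and length offsets and -0.18 to 0.35 with a library left out, and Egfr was -0.20 to 0.083. In 16-week HFD, Erbb3 was 0.19 with limma-voom and 0.49 without 16-week CD replicates 1 and 2. In the low weight gainers against 16-week HFD, Egfr was 0.014 with total counts and 0.25 with GC and length offsets, with which Erbb2 was -0.33, and Ereg was 0.384 with a pseudocount of 0.1. Against 16-week CD, Hbegf was 0.304 with that pseudocount, and Erbb3 was 0.68 with limma-voom, 0.75 without the 2 CD libraries and -0.37 to 0.17 with a library left out. In the interaction, limma-voom gave Ereg 0.037 and Erbb3 0.30, GC and length offsets gave Erbb3 0.16, and the fit without the 2 CD libraries gave Ereg 0.14, Erbb2 0.027 and Erbb3 0.74. With a library left out Erbb3 was -0.33 to 0.29 there.

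The number of all genes called depended on the settings too. It was 1004 in 16 L (504 to 7552 in other settings, 30 to 4635 with a library left out), 499 in 4-week HFD (69 to 4048, and 8 to 1700), 3 in 16-week HFD (0 to 1622, and 1 to 2222), 2330 in the low weight gainers against 16-week HFD (487 to 3287, and 596 to 2732), 1 against 16-week CD (0 to 245, and 0 to 1) and 448 in the interaction (89 to 2355, and 69 to 1685). Levels by total counts moved by over 1 SD for Btc (27.0), Egfr (16.2) and Erbb3 (4.90, all in reads scaled by library totals) in 16 C and Egfr (19.8) in 16-week HFD. No paired analysis was possible because the groups of each pairwise comparison share no replicate number, and the 4-week and 16-week groups are different mice. Areg, Ereg and Hbegf had more than 3 reads in 15, 20 and 13 of the 34 libraries, so their comparisons rest on few reads. The part of depth in these low counts was not tested.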
